A study of Mus musculus with 2 samples.

Results

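Plasma cells, the antibody-secreting end stage of the B lineage, were examined in tumours from KPPC mice, which carry an engineered form of pancreatic ductal cancer. Single-cell RNA was counted in 2 libraries, 1 from mice given vehicle and 1 from mice given takinib, a small-molecule inhibitor of the kinase TAK1. Per the labels, the mice were 6 weeks old, the dose was 50 mg/kg and treatment ran for 14 days; both arms were KPPC tumours digested with collagenase A and DNase-I. The labels do not say how many mice went into each library. With 1 library a group no test between treatments was possible, and every interval in square brackets is an exact 95% interval that covers counting error only.

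A plasma cell was a barcode with at least 1000 UMIs (molecular identifiers that count captured transcripts once each), at least 500 genes and at most 20% mitochondrial UMIs. It also needed at least 2 UMIs of Mzb1 and 10 of Jchain, at most 2 of C1qa, C1qb and C1qc together, and none of Cd3e or Epcam. Mzb1 is an endoplasmic reticulum cochaperone of B lineage cells, and Jchain is the peptide that joins IgA dimers and IgM pentamers. The rule found 104 cells among 36662 barcodes past the filters. They were 26 of 9872 in vehicle, 0.263% [0.172, 0.386], and 78 of 26790 in takinib, 0.291% [0.230, 0.363]. These shares overlapped within counting error, but only with the Epcam limit in place. Without it the counts were 30 of 9872 in vehicle and 160 of 26790 in takinib. The cells were chosen by measured counts of Mzb1 and Jchain, so the levels of both describe the choice and nothing more. The 3 lowest Jchain counts inside the rule were 28, 38 and 46 UMIs in vehicle and 18, 24 and 35 in takinib, and 4 vehicle barcodes and 1 takinib barcode lay just outside with 5 to 9.

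Plasma cells turn over much of their RNA to a single product. Each one carries 1 rearranged heavy chain and 1 light chain, and the heavy-chain constant gene in use sets the isotype: IgM before class switching, and IgG, IgA or IgE after it. The load of nascent antibody is carried by an enlarged endoplasmic reticulum, whose import channel, chaperones, glycosylation enzymes and disposal machinery are raised by the transcription factor XBP1. IgA plasma cells are best known from mucosal surfaces, where the chemokine receptors CCR9 and CCR10 guide their homing.

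The cells carried the markers of their label. Xbp1 was detected in 26 of 26 vehicle cells and 77 of 78 takinib cells, and Derl3, a component of the disposal pathway, in 15 and 62. The B cell marker Ms4a1, which plasma cells lose, was detected in 2 and 6 cells. Siglech, the defining marker of plasmacytoid dendritic cells, which also express Jchain, had no UMI in either library. The 5 markers of those cells on the list summed to 72 UMIs in 22 of 26 vehicle cells and 259 in 67 of 78 takinib cells, with Klk1 also at 0 in takinib. T cell markers summed to 1 UMI in vehicle and 7 in takinib.

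The libraries differed in ways that ran together with treatment and cannot be told apart from it. The vehicle counts came from an unfiltered barcode list and an older Cell Ranger version. Plasma cells had a median of 5390.5 UMIs in vehicle (1894 to 10725) and 7236.5 in takinib (2336 to 18921), with median mitochondrial shares of 5.16% and 1.31%. Xist, a transcript of female cells, was found without Y-linked transcripts in 6 vehicle and 64 takinib plasma cells, and Y-linked transcripts without Xist in 7 and 0. Neutrophil markers summed to 9 UMIs over 26 vehicle cells (0 to 2 a cell, 4 of 8 genes detected, with Cxcr2, Mmp8, Ngp and Camp at 0) and to 7145 UMIs over 78 takinib cells (0 to 2294 a cell, median 4, all 8 detected). Macrophage markers summed to 139 UMIs in vehicle and 156 in takinib, or 1804 and 514 CPM of the UMIs that were not from immunoglobulin genes. On the same scale epithelial markers were at 1142 CPM in vehicle (88 UMIs, 69 of them in 1 cell) and 234 in takinib (71 UMIs), and fibroblast markers at 623 (48 UMIs, 32 of them in 1 cell) and 46.1 (14 UMIs). The part of these markers in the differences between libraries was not tested. No plasma cell barcode occurred in both libraries as a plasma cell, although 400 barcodes past the filters did occur in both, 1 of them a vehicle plasma cell.

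Most vehicle plasma cells expressed Igha, while takinib plasma cells were split between Igha and Ighm. The isotype was called from the constant gene holding at least 80% of a cell's heavy-constant UMIs, with at least 10 such UMIs, and all 104 cells could be called. In vehicle, 20 of 26 cells were Igha, 76.9% [56.4, 91.0], 1 was Ighm, 3.85% [0.0973, 19.6], and 5 used an IgG gene (2 Ighg1, 2 Ighg2b and 1 Ighg2c). In takinib, 36 of 78 were Igha, 46.2% [34.8, 57.8], 34 were Ighm, 43.6% [32.4, 55.3], and 8 used an IgG gene (5 Ighg2b, 1 Ighg2c and 2 Ighg3). The intervals of the Ighm shares did not overlap, and those of the Igha shares overlapped by a little over 1 percentage point. No cell was called Ighd or Ighe, and Ighg1 was used by no takinib cell, which by a limit of 3 cells of 78 allows a share of up to 3.85%. Over 12 other settings of the rule and the call, the Igha share lay between 66.7% and 79.2% in vehicle and between 40.0% and 47.2% in takinib. Among vehicle cells, Igha was used by 4 of the 6 with Xist alone and by 6 of the 7 with Y-linked transcripts alone, so the Igha majority was present with either kind.

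**Figure D1:**
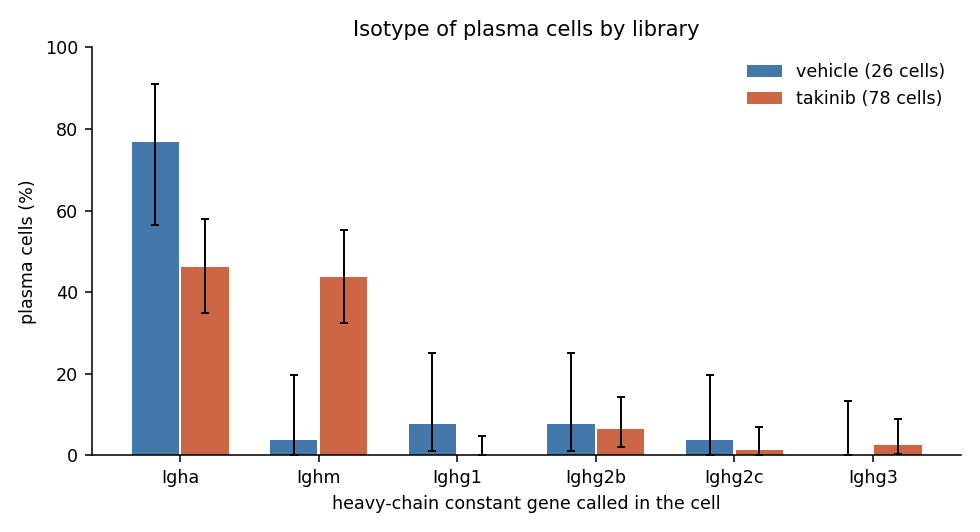
Share of plasma cells (%) called for each heavy-chain constant gene in the vehicle library (26 cells) and the takinib library (78 cells), with exact 95% intervals for counting error as error bars. Igha stands at 76.9% in vehicle and 46.2% in takinib, and Ighm at 3.85% and 43.6%.

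The calls were sharp. The leading constant gene held at least 99% of heavy-constant UMIs in 23 of 26 vehicle cells and 73 of 78 takinib cells, and its lowest share in any cell was 85.0% and 94.6%. Takinib Ighm cells held 130 to 1544 Ighm UMIs each, with a median of 606, and at most 1 Igha UMI. Takinib Igha cells held 305 to 2406 Igha UMIs each, and their heavy-constant UMIs had a median of 1063. The constant genes lie side by side on the minus strand of chromosome 12 (GRCm38, GENCODE M21), from Ighm at 113418558-113422730 to Igha at 113254830-113260236.

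Kappa was the usual light chain. By the same call, Igkc was the light chain of 25 of 26 vehicle cells, 96.2% [80.4, 99.9], and of 70 of 78 takinib cells, 89.7% [80.8, 95.5]. Lambda genes (Iglc1, Iglc2 and Iglc3 together) were called in 0 vehicle cells, which by a limit of 3 cells of 26 allows up to 11.5%, and in 6 takinib cells, 7.69% [2.88, 15.99], of which 3 were Ighm, 2 Igha and 1 Ighg2b. The other 3 cells reached no call.

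Jchain, on which the cells were chosen, is given by isotype as a description. In takinib the median was 411.5 UMIs in Igha cells (60 to 914), 121 in Ighm cells (18 to 718) and 50 in IgG cells (24 to 407). Vehicle Igha cells had a median of 207 (38 to 491). Since at least 10 Jchain UMIs were required, the rule leaves out cells with less. Among takinib cells kept, IgG cells had the lowest median, while the lowest single count, 18, was in an Ighm cell.

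By the median, immunoglobulin transcripts made up about the same share of plasma cell RNA in both libraries. The median share of a cell's UMIs was 52.1% in vehicle (14.1% to 70.4%) and 52.2% in takinib (12.1% to 79.2%), and 13 of 26 and 43 of 78 cells were over 50%. The first quartiles were 21.5% and 35.8%. When Xbp1 and Derl3 replaced the Jchain minimum, the vehicle median was 29.9%. B cells, taken as barcodes with at least 2 Cd79a UMIs, at least 1 of Ms4a1 and the same limits on other lineages, had medians of 0.888% in vehicle and 0.790% in takinib over 110 and 501 cells.

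By isotype the shares differed more. Takinib Igha cells had a median of 57.9% (27.5% to 79.2%), Ighm cells 39.1% (12.1% to 67.8%) and IgG cells 58.9% (14.6% to 66.6%). Vehicle Igha cells had a median of 50.0% (14.1% to 66.5%). Of the vehicle Igha cells, 9 of 20 lay under 35%, against 3 of 36 takinib Igha cells. The 9 vehicle cells under 35% had more UMIs outside immunoglobulin genes (median 3595 against 1987 in the other 11) and 64 macrophage marker UMIs, 50 of them in 1 cell; 5 of the 9 held a Mki67 or Top2a UMI, against 1 of the other 11.

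**Figure D2:**
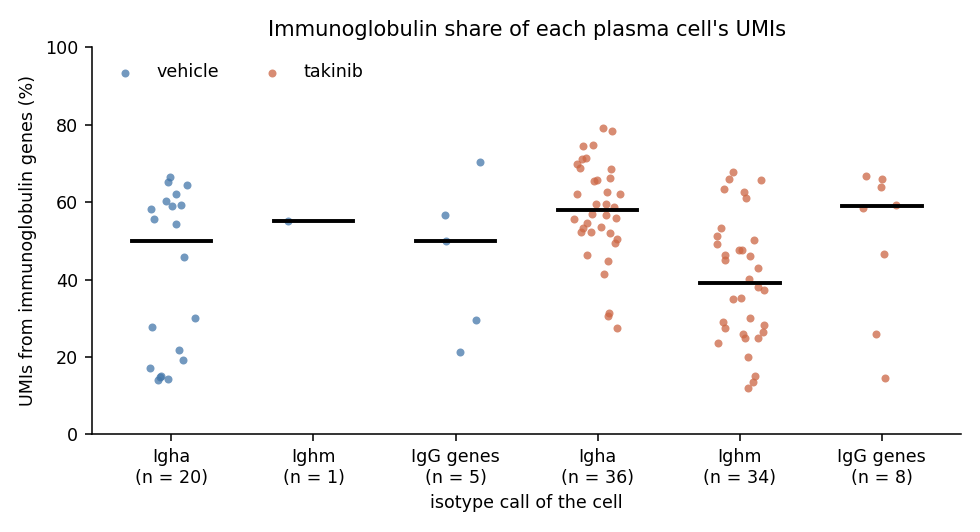
Share of each plasma cell's UMIs that came from immunoglobulin genes (%), by isotype call and library, with 1 point a cell and a line at the median. Takinib Igha cells (median 57.9%) sit above takinib Ighm cells (median 39.1%), and the vehicle Igha cells spread over a wide range, with 9 of 20 under 35%.

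Variable genes were diverse. A V gene was called when it held at least 80% of a cell's heavy or light V UMIs, with at least 10 such UMIs, and both a heavy and a light V gene were called in 18 vehicle and 68 takinib cells. All 18 vehicle pairs were different. The 68 takinib cells held 58 different pairs, and 7 pairs occurred more than once, in 17 cells together. The most frequent pair, Ighv1-26 with Igkv6-15, was found in 5 takinib cells, of which 2 were Igha and 3 Ighm. In the other 6 repeated pairs both cells had the same isotype, Igha in 3 pairs and Ighm in 3. A single pair, Ighv9-3 with Igkv1-117, was found in both libraries, in 1 Igha cell each. Near-identical V genes share reads, so the V gene names are uncertain, and gene-level counts cannot show whether cells with the same pair were of 1 clone.

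Genes of the secretory pathway stood far above their level in B cells, in both libraries. Counts were summed over cells and scaled to CPM, here counts scaled to a common total of UMIs outside the immunoglobulin genes and Jchain, and genes with at least 20 counts over the cells compared were kept. Of 96 genes in 5 lists (import into the endoplasmic reticulum, chaperones and disulphide enzymes, ER-associated degradation, N-glycosylation, and traffic to the Golgi), 78 passed in vehicle and 77 were higher in plasma cells, with a median log2 ratio of 2.47. All 96 passed in takinib, 94 were higher and the median was 2.57. Over all genes, 45.4% of 2360 were higher in vehicle and 44.2% of 7403 in takinib, with medians of -0.10 and -0.17. By list, the takinib medians ran from 1.75 for Golgi traffic to 3.40 for chaperones and disulphide enzymes. These values are descriptions, since Mzb1 and Jchain mark the same cells, and B cells were shallower, with medians of 1706 and 2048 UMIs.

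The chaperone Hsp90b1 had 807 UMIs in vehicle plasma cells and 106 in B cells, or 10475 and 423 CPM, a log2 ratio of 4.63 [4.34, 4.94], and in takinib the ratio was 4.47 [4.31, 4.62]. Txndc5, a disulphide isomerase, had ratios of 3.89 [3.32, 4.50] in vehicle and 5.63 [5.31, 5.97] in takinib. Ssr4, a subunit of the translocon-associated complex, had 4.03 [3.52, 4.58] and 4.55 [4.36, 4.75], and Sec11c, a catalytic subunit of signal peptidase, 4.02 [3.52, 4.55] and 4.52 [4.31, 4.73]. Each of these genes was thus over 8-fold higher in plasma cells of both libraries.

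The transcription factors of the plasma cell programme pointed the same way. Xbp1 had 1778 CPM in vehicle plasma cells and 51.8 in B cells, a log2 ratio of 5.10 [4.28, 6.05], and 2610 against 159 CPM in takinib, 4.03 [3.82, 4.25]. Prdm1, which encodes the repressor BLIMP1, had ratios of 2.55 [0.82, 4.48] and 4.72 [3.73, 5.86], and Irf4, which drives plasma cell differentiation, 3.38 [1.87, 5.18] and 3.38 [2.95, 3.84]. Tnfrsf17, the survival receptor BCMA, had 15 UMIs in vehicle and 50 in takinib plasma cells and none in B cells of either library. Pax5, which holds B cell identity, was the reverse, with no UMI in plasma cells and 47 and 210 in B cells.

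All 15 genes of a B cell identity list were lower in plasma cells of both libraries, with medians of -2.27 and -3.46. Of these, Cd79a and Ms4a1 chose the B cells, so their direction is fixed by that choice. Also lower were all MHC class II genes that passed, 9 in vehicle and 10 in takinib, with medians of -3.19 and -3.42. Over all genes, 20.7% in vehicle and 23.7% in takinib were over 2-fold lower. Cd74, the MHC class II invariant chain, was reduced less, by log2 ratios of -1.16 [-1.34, -0.98] and -1.04 [-1.14, -0.95].

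**Figure D3:**
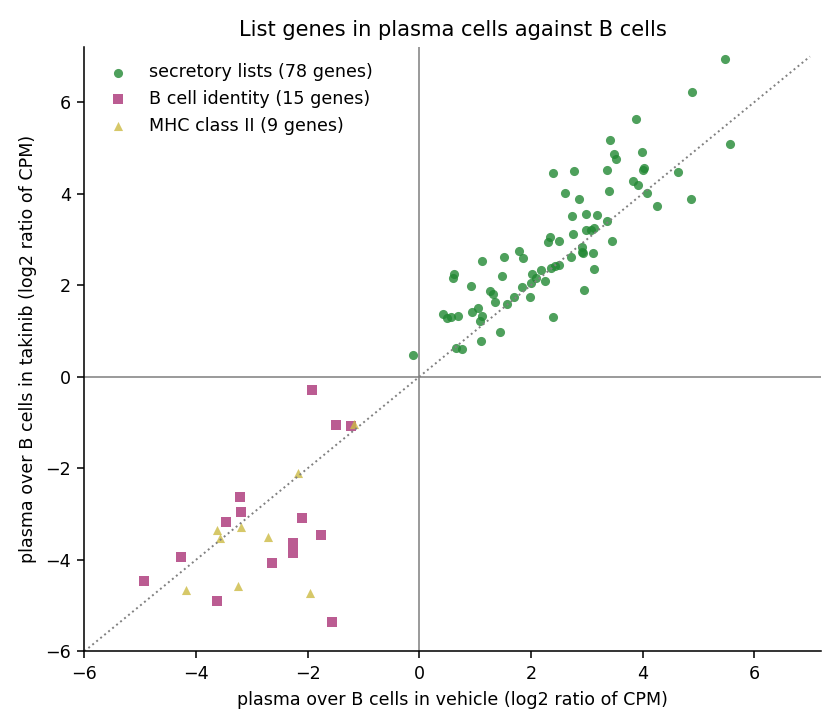
Log2 ratio of CPM in plasma cells over B cells for each gene of the secretory, B cell identity and MHC class II lists that passed in both libraries, vehicle on the horizontal axis and takinib on the vertical, with a dotted line of equal ratios. Secretory genes lie in the upper right (medians 2.47 and 2.57) and B cell genes in the lower left (medians -2.27 and -3.46).

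The 10 genes with the highest takinib ratio among those with at least 50 counts were Eaf2, Derl3, Gm5547, Prg2, Tnfrsf17, Cacna1h, Tram2, Creld2, Tent5c and Txndc5. Eaf2, a partner of the elongation factor ELL2, had 18 UMIs in vehicle plasma cells and 8 in B cells, and 127 and 5 in takinib, log2 ratios of 2.87 [1.60, 4.28] and 6.95 [5.69, 8.60]. Derl3 had 41 and 3 UMIs in vehicle and 176 and 7 in takinib, 5.48 [3.83, 7.81] and 6.94 [5.86, 8.27]. Tent5c, a poly(A) polymerase that stabilises immunoglobulin messages, had 43 and 2, and 217 and 19, with ratios of 6.13 [4.19, 9.22] and 5.80 [5.12, 6.56]. All 10 were higher in plasma cells of the vehicle library too.

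Promoters of several of these genes hold the ER stress response element, the site through which ATF6 and XBP1 act with NF-Y. It was searched as CCAAT, then 9 bases of any kind, then CCACG, on both strands of RefSeq promoter windows (GRCm38.p6, 250 bases before to 50 after the start). The element was present in 37 of 27025 genes, 0.137% (39 of 32851 windows), and in 9 of the 78 secretory genes found in the table, 11.5%. They are printed 5′ to 3′ on the gene's strand with 20 bases on each side, because these 9 genes include the chaperones and the degradation gene described here. Capitals mark the 2 conserved ends of the element, and a promoter that reads CGTGG and then ATTGG carries it on the opposite strand.
Hspa5, chr2:34772005-34772063, plus strand: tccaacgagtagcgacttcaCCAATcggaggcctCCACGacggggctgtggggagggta
Hsp90b1, chr10:86705513-86705571, minus strand: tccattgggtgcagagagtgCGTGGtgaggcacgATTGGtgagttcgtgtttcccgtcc
Hsp90b1, chr10:86705618-86705676, minus strand: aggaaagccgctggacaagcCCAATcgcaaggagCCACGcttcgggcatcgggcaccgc
Calr, chr8:84847055-84847113, minus strand: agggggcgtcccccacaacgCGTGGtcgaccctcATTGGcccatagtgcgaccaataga
Canx, chr11:50325780-50325838, minus strand: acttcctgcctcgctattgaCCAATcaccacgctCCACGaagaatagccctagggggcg
Pdia6, chr12:17266471-17266529, plus strand: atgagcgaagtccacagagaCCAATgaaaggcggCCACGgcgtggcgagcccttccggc
Dnajc3, chr14:118937807-118937865, plus strand: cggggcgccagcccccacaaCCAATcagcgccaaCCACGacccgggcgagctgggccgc
Creld2, chr15:88819500-88819558, plus strand: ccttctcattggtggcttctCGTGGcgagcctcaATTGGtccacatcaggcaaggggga
Derl3, chr10:75893222-75893280, plus strand: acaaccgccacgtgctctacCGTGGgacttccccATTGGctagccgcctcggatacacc
Syvn1, chr19:6046512-6046570, plus strand: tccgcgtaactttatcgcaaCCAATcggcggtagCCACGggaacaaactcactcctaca
The element ended between 25 bases (Syvn1) and 193 bases (the farther of 2 in Hsp90b1) before the RefSeq start. For Derl3 and Dnajc3, the bases just after that start were not found in GENCODE M21 transcripts of the gene. In takinib the plasma over B log2 ratio of the 9 genes ran from 0.64 [0.25, 1.02] for Canx to 6.94 for Derl3, and in vehicle from 0.60 [-0.48, 1.59] for Syvn1 to 5.48 for Derl3. A match in these windows is a description of the letters and says nothing of a factor's binding.

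Between treatments, the secretory programme as a whole was at nearly the same level. Of the 96 genes, 90 passed with at least 20 counts over both libraries; 61 were higher in takinib, 29 were lower and the median log2 ratio of takinib over vehicle was 0.20. Over all 2498 genes 53.7% were higher, with a median of 0.07. The summed CPM was 66475 in takinib and 61669 in vehicle, a log2 ratio of 0.11 [0.06, 0.15], and its sign depended on the scale, since it was -0.0049 when all UMIs were the total. Only 5 of the 90 genes were over 2-fold higher and 1 over 2-fold lower, where the background was 14.1% and 6.81%.

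Over all isotypes, import and degradation genes were modestly higher in takinib. Of 21 import genes 15 were higher, with a median of 0.37 and a summed ratio of 0.34 [0.25, 0.42]. Ssr4 had 1314 UMIs in takinib and 186 in vehicle, or 4329 and 2414 CPM, a log2 ratio of 0.84 [0.62, 1.07]. Srpr, the signal recognition particle receptor, had 666 and 325 CPM, 1.04 [0.43, 1.70]. Of 15 degradation genes 13 were higher, with a median of 0.30 and a summed ratio of 0.34 [0.19, 0.48]. Selenos had 685 and 376 CPM, 0.86 [0.30, 1.48]. Within Igha cells alone, 12 of 21 import genes were higher, with a median of 0.08, where all genes had -0.02. Degradation genes there were higher in 11 of 14 cases, with a median of 0.57.

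Chaperones and disulphide enzymes were mixed, with 14 of 24 higher. Hsp90b1 was the lowest, at 6089 CPM in takinib and 10475 in vehicle, a log2 ratio of -0.78 [-0.90, -0.66], which ran from -0.99 to -0.16 over 21 other settings, the latter with cells thinned to 500 UMIs. Hspa5, the chaperone BiP, had 1743 and 1973 CPM, -0.18 [-0.44, 0.09], and Pdia6 and Pdia3, protein disulphide isomerases, had -0.51 [-0.92, -0.09] and -0.45 [-0.86, -0.01]. Other genes of the list lay the other way. Txndc5 had 0.64 [0.38, 0.90], Creld2 0.60 [0.21, 1.00], Txndc11 0.85 [0.31, 1.43] and Ero1l, an oxidase that recharges disulphide isomerases, 2.93 [1.01, 6.01] on 60 against 2 UMIs. Because Hsp90b1 holds a large part of the list's UMIs, the summed ratio was -0.11 [-0.18, -0.04] while the median was 0.15.

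Glycosylation and Golgi genes had medians near the background. The 11 glycosylation genes that passed had a median of 0.16 and the 19 Golgi traffic genes 0.16, with summed ratios of 0.04 [-0.11, 0.19] and 0.16 [-0.01, 0.33]. Ganab, the catalytic subunit of glucosidase II, was the only secretory gene over 2-fold lower, at 142 against 286 CPM, -1.01 [-1.78, -0.20]. Kdelr2, the retrieval receptor for resident chaperones, had 244 against 104 CPM, 1.23 [0.18, 2.50], on 8 vehicle UMIs.

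Transcription factors were higher in 6 of 8 cases. Xbp1 had 2610 CPM in takinib and 1778 in vehicle, 0.55 [0.29, 0.83], Irf4 had 451 and 208, 1.12 [0.37, 1.97], and Pou2af1, a coactivator of octamer-binding factors at immunoglobulin genes, 728 and 325, 1.17 [0.57, 1.83]. Zbtb20 was lower, at 119 against 325 CPM, -1.45 [-2.23, -0.65]. Among surface and homing genes 6 of 14 were higher. Itgb7, the beta chain of the gut-homing integrin, had 8 UMIs in takinib and 13 in vehicle, -2.68 [-4.16, -1.30], and Ccr10 19 and 12, -1.32 [-2.43, -0.14]. Restricting both libraries to Igha cells kept the directions of Xbp1 (0.84), Irf4 (1.57), Pou2af1 (1.18) and Hsp90b1 (-0.99), while Ccr10 was then at -0.23.

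**Figure D4:**
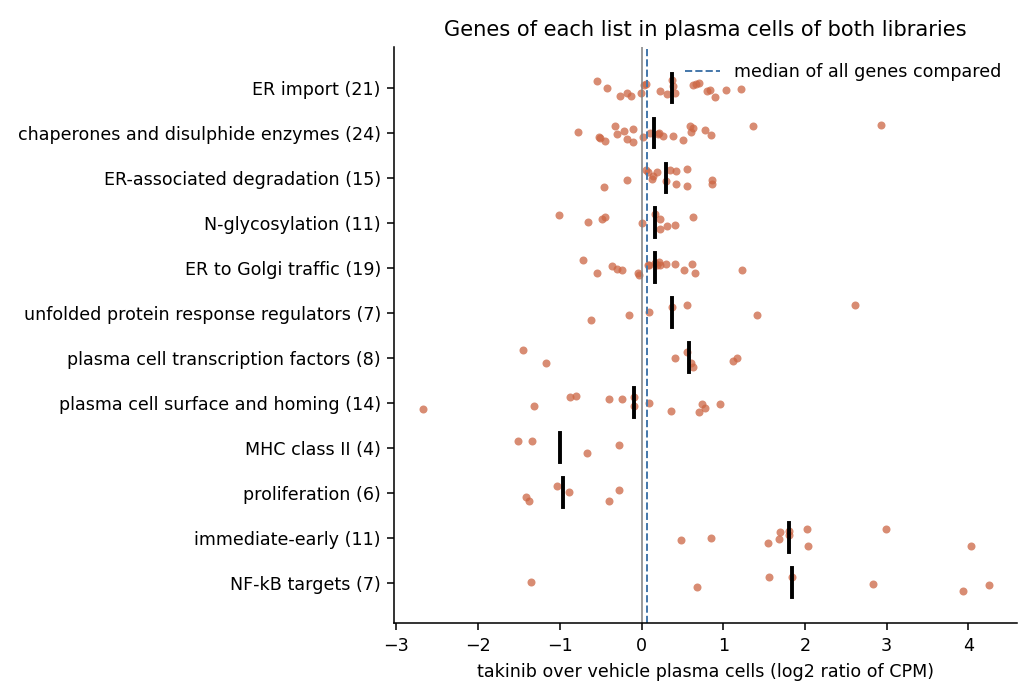
Log2 ratio of CPM in takinib over vehicle plasma cells for each gene that passed, by list (number of genes in brackets), with a black line at each list's median and a dashed line at the median of all genes. The secretory lists lie near 0, with medians of 0.15 to 0.37, immediate-early genes lie at a median of 1.80, and all 4 MHC class II genes lie below 0.

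Immediate-early genes, which encode short-lived transcripts made soon after a stimulus, were higher in takinib in all 11 cases, with a median of 1.80 and a summed ratio of 1.87 [1.64, 2.11], and 9 were over 2-fold higher. Fos had 387 UMIs in 65 of 78 takinib cells and 6 UMIs in 4 of 26 vehicle cells, 4.03 [2.90, 5.49]. Jun had 250 and 8 UMIs, 2.99 [1.99, 4.22], and Jund 694 and 60, 1.55 [1.17, 1.96]. All 9 vehicle UMIs of Fosb came from 1 cell. Over 21 other settings the summed ratio lay between 1.37 (Igha cells alone) and 2.23.

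NF-kB target genes gave a summed ratio of 3.14 [2.72, 3.59], but its sign turned when a neutrophil profile was subtracted. Cxcl2, a neutrophil chemoattractant, had 1085 UMIs in 46 takinib cells, 354 of them in 1 cell, and 18 in vehicle, 3.94 [3.27, 4.70]. Ccl3 had 225 and 3 UMIs, 4.25 [2.69, 6.54]. The average profile of 9763 takinib neutrophils, scaled to the S100a8 and S100a9 counts, was subtracted, and counts below 0 were set to 0. The list's summed ratio was then -2.39 and Nfkbia was at -0.73. No takinib count of Cxcl2 was left, so its -4.25 is a bound that puts 3 counts in place of 0. The immediate-early sum was 1.70, with Fos at 4.14 and Jun at 2.98. Without the 5 takinib cells in which S100a8 and S100a9 exceeded 5% of the UMIs outside immunoglobulin genes, the NF-kB sum was 2.41. Tnfaip3, an inhibitor of the pathway, was lower in takinib without any subtraction, at 56.0 against 143 CPM, -1.35 [-2.53, -0.11]. It was at -0.14 without the Epcam limit and -0.22 with Epcam at most 3 and keratins at most 2. After the subtraction Tnfaip3 also had no takinib count left, and its -3.54 is a bound of the same kind.

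MHC class II and proliferation genes were lower in takinib. All 4 class II genes that passed were lower, H2-Aa by -1.51 [-2.37, -0.63] and H2-Eb1 by -1.34 [-2.10, -0.55]. Without the Epcam limit they were at -0.50 and -0.48, with Epcam at most 3 and keratins at most 2 at -0.59 and -0.53, and with Jchain at least 5 at -2.37 and -2.22. Within Igha cells the class II sum was -0.05, against -0.41 [-0.58, -0.24] over all cells. The class II median there was -0.66, with 2 of 4 genes higher in takinib. The 2 macrophage markers that passed were lower in takinib both ways, with medians of -2.13 over all cells and -1.99 within Igha cells. The part of macrophage RNA in the class II difference was not tested. All 6 proliferation genes that passed were lower, with a summed ratio of -0.85 [-1.17, -0.53]. Over 19 other settings this sum lay between -1.86 and -0.47. The share of cells with a Mki67 or Top2a UMI was 30.8% in both libraries. Top2a, a topoisomerase of dividing cells, had 125 against 325 CPM, -1.37 [-2.14, -0.58].

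By the rule for named genes, the 5 highest ratios among genes with at least 50 counts were S100a9, S100a8, Saa3, Lcn2 and Retnlg, all neutrophil or acute-phase transcripts, with 2919, 3475, 786, 616 and 294 UMIs in takinib and 1, 4, 1, 1 and 1 in vehicle. The 5 lowest were Tff2, Apoe, Spp1, Crip1 and Rsrp1. Tff2, an epithelial secreted peptide, had 44 UMIs in vehicle, 36 in 1 cell, and Spp1, a macrophage and epithelial gene, had 53, 26 in 1 cell. Crip1, a LIM domain protein, had 255 UMIs in 21 of 26 vehicle cells and 184 in takinib, 3310 and 606 CPM, -2.45 [-2.73, -2.17].

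Igha and Ighm cells could be compared within the takinib library. Their median depths were 9131 and 6824.5 UMIs, of which medians of 3012.5 and 3453 lay outside immunoglobulin genes. Over 1750 genes, 46.5% were higher in Igha cells, 6.91% were over 2-fold higher and 7.31% over 2-fold lower. The secretory programme was similar, with 36 of 88 genes higher in Igha cells and a median log2 ratio of Igha over Ighm of -0.09. ER-associated degradation genes were higher in 10 of 15 cases, with a median of 0.33, and glycosylation genes in 2 of 11, with a median of -0.35. Immediate-early genes were lower in Igha cells in 11 of 11 cases, with a median of -0.78.

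Several genes separated the isotypes. The barcodes that the rule left out for an Epcam UMI, 28 of them Igha and 35 Ighm, gave a second set of takinib cells of the same library. Ccr10 had 19 UMIs in 10 of 36 Igha cells and none in 34 Ighm cells, and 12 UMIs in 9 of 28 and none in 35 in the second set. Ccr9 had 14 UMIs in Igha and 1 in Ighm cells, and 11 and 0 in the second set. Vehicle Igha cells had 11 Ccr10 UMIs in 8 of 20 cells. Vpreb3, which encodes a surrogate light chain protein of early B cells, had 369 CPM in Igha and 28.2 in Ighm cells, 286 and 40.0 in the second set, and 325 in vehicle Igha cells. Glipr1 had 634 and 91.7 CPM, then 59 and 20 UMIs, and 569 CPM in vehicle Igha cells. The paired membrane genes Tmem176b and Tmem176a were likewise higher in Igha cells, Tmem176b at 819 and 120 CPM, then 851 and 116, and at 504 in vehicle Igha cells. In these genes vehicle Igha cells stood with the takinib Igha cells.

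Prg2, which encodes the eosinophil major basic protein, differed. It had 53 UMIs in 20 of 36 takinib Igha cells and 11 in 7 Ighm cells, then 80 and 14 in the second set, and 1 UMI in the 20 vehicle Igha cells. Prg2 was thus at 425 CPM [319, 556] in takinib Igha cells and 16.3 [0.412, 90.6] in vehicle Igha cells. The second set did not repeat every gene. Atp1b1 was highest in Igha cells at first (562 against 28.2 CPM) but was at 176 and 184 CPM in the second set, Cxcl3 was at 1075 and 63.5 and then at 72.9 and 528, and Itga4 was at 409 and 98.7 and then at 164 and 240. In Cxcl3, 62 of the 134 Igha UMIs came from 1 cell. In Atp1b1, 26 of the 46 Ighm UMIs of the second set came from 1 barcode, so that value rests largely on it.

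Genes higher in Ighm cells included Jun, the MHC class I gene H2-D1, and Slpi, a secreted protease inhibitor. Jun had 1291 CPM in Ighm and 289 in Igha cells, 1276 and 425 in the second set, and 81.3 in vehicle Igha cells. Slpi had 9091 and 2344 CPM, then 9160 and 2309, and 569 in vehicle Igha cells. H2-D1 had 1636 and 562 CPM, then 1488 and 838. Zbp1, a sensor of left-handed nucleic acid, had 317 and 112, then 248 and 91.1. Cd52, a small surface glycoprotein of lymphocytes, had 2673 and 658, then 1920 and 845, and 2114 in vehicle Igha cells. For Cd52, 1 cell held 69 of the 130 vehicle Igha UMIs, and 1 cell held 102 of the 379 takinib Ighm UMIs. Snrpg, a core spliceosome protein, had 282 and 80.3 but 280 and 255 in the second set. Ifitm6 had 402 and 144, then 40.0 and 30.4, and 42 of its 57 Ighm UMIs came from 1 cell. Slpi is also a neutrophil transcript, and the part of neutrophil RNA in its level was not tested.

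**Figure D5:**
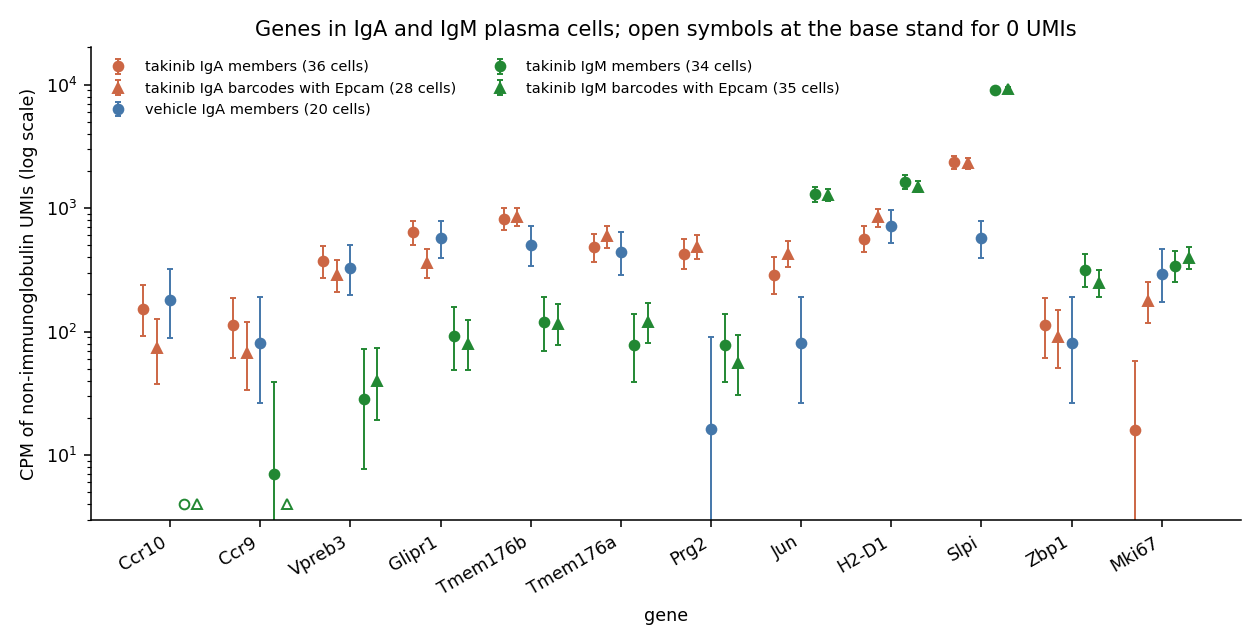
CPM of UMIs outside immunoglobulin genes (log scale) for 12 genes, summed over takinib Igha and Ighm plasma cells, takinib barcodes of both isotypes left out by the rule for an Epcam UMI, and vehicle Igha plasma cells, with exact Poisson intervals. Ccr10 has no UMI in either set of Ighm cells, and Vpreb3, Glipr1, Tmem176b and Tmem176a are higher in all 3 sets of Igha cells than in both sets of Ighm cells.

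Cycling cells were more frequent among takinib Ighm than Igha cells. A Mki67 or Top2a UMI was found in 15 of 34 Ighm cells, 44.1% [27.2, 62.1], in 4 of 36 Igha cells, 11.1% [3.11, 26.1], and in 5 of 8 IgG cells. In vehicle, 6 of 20 Igha cells held one, a share with an interval of 11.9% to 54.3%. Over all plasma cells the share was 30.8% in both libraries. Neutrophils, chosen by S100a8, S100a9 and Csf3r, gave 8.18% [7.65, 8.74] in takinib and 5.63% [1.56, 13.8] in vehicle. This class was not limited to mature cells, so its share need not be free of dividing cells. Its median depths were 2454 and 1261 UMIs outside immunoglobulin genes, against 3012.5 in takinib Igha and 3453 in takinib Ighm cells. Thinned to 1000 such UMIs a cell, which left out 2 Igha cells, the shares were 23.5% [10.7, 41.2] in Ighm cells, 8.82% [1.86, 23.7] in Igha cells and 3.41% [3.06, 3.79] in takinib neutrophils. The thinned intervals of Ighm and Igha cells overlapped, and the interval of the Igha share also held the neutrophil share. In the second set, Mki67 had 99 UMIs in 18 of 35 Ighm and 29 in 5 of 28 Igha barcodes.

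The Epcam limit decided how many takinib plasma cells there were. Of barcodes meeting every other limit, it removed 4 of 30 in vehicle and 82 of 160 in takinib. Epcam, an epithelial adhesion molecule, was thus found in 51.3% [43.2, 59.2] of these takinib barcodes, against 10.5% of T cells, 10.7% of macrophages, 12.01% of neutrophils and 13.2% of B cells in the same library. At 2000 UMIs outside immunoglobulin genes the share was 32.7% [25.2, 40.9] against 4.70% to 11.04%. Keratin UMIs (Krt8, Krt18 and Krt19) did not follow: there were 0.823 per Epcam UMI in these takinib barcodes, 2.38 to 3.54 in the other immune classes and 2.96 in keratin-positive cells. Most of the 82 held little Epcam, with 1 to 3 UMIs in 65, and 58 of these had no keratin UMI. The removed barcodes had a median of 45.8% immunoglobulin UMIs and 10290.5 UMIs in all, against 52.2% and 7236.5 in the cells kept. Epcam was found in 28 of 64 Igha, 35 of 69 Ighm and 19 of 27 IgG takinib barcodes, and in 0 of 20 Igha, 0 of 1 Ighm and 4 of 9 IgG vehicle barcodes. Without the limit the takinib library had 40.0% Igha, 43.1% Ighm and 16.9% IgG cells, and vehicle 66.7% Igha, 3.33% Ighm and 9 IgG cells of 30.

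Immunoglobulin UMIs were also found in other cells of both libraries. The share of macrophages with an Igha UMI was 20% in vehicle and 9.98% in takinib, at means of 1.26 and 2.06 UMIs a cell, where plasma cells without the Epcam limit held means of 556 and 431. The median macrophage had 0 Igha UMIs in either library, and the highest had 1305 in vehicle and 2066 in takinib, while 1 vehicle T cell had 776. For Igkc the macrophage shares were 11.4% and 21.8%. The source of these UMIs was not tested.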

How the data were processed

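Raw UMI counts per gene and barcode were deposited by the authors as 1 matrix a library. Per the file headers, the vehicle matrix was written by Cell Ranger 4 and that of takinib by version 6.1.1. The submitters' processing notes list Cell Ranger 2.1.1, STAR 2.0.4b, featureCounts 1.45 and mm10 instead, and the difference was not resolved. The takinib barcode list was already filtered and the vehicle list was not, so the same limits were applied to both. Counts were read with Python 3.11.15 (numpy 2.4.6, scipy 1.17.1, pandas 2.3.3). No doublet caller was run; the limits on C1q, Cd3e and Epcam stood in for it. Immunoglobulin genes were found by symbol and by their GENCODE M21 gene type. Counts summed over cells were compared as log2 ratios with exact conditional binomial intervals, a count of 0 being set to 3 counts, and shares carry exact Clopper-Pearson intervals. Samples were grouped by label, 1 a group, so there is no test and no p-value. Alternatives changed the rule's limits, the isotype threshold, the scaling and the minimum of 20 counts. The script was checked on simulated counts. Named genes were those of fixed lists with at least 20 counts, the 5 highest and 5 lowest takinib over vehicle ratios with at least 50 counts (immunoglobulin, mitochondrial, ribosomal, haemoglobin and sex-linked genes left out), and the 10 highest plasma over B ratios in takinib. The genes shown for Igha against Ighm cells were the 8 highest and 8 lowest ratios plus homing and cycling genes, chosen after their values were seen. The members and lists were chosen with earlier results of these data known.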

Additional observations from a re-analysis of the deposited data

How the results depend on the processing

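No paired analysis was possible because each group has 1 library without a replicate number, and leaving out a library leaves no comparison. The Igha share of either library and the takinib Ighm share stayed within their intervals under 12 alternatives, and vehicle Ighm was at 0% with Mzb1 at least 4 or with Epcam at most 3 and keratins at most 2. Epcam settings and the members without cycling transcripts were chosen after seeing the data. The number of plasma cells was 160 in takinib without the Epcam limit, 143 with Epcam at most 3 and keratins at most 2, and 14 in vehicle when Xbp1 and Derl3 replaced the Jchain minimum, where the vehicle immunoglobulin share was 29.9%. The kappa share was 100% in vehicle with calls at 50%, and 76.9% and 67.9% in vehicle and takinib with calls at 95%.

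The summed secretory ratio (0.11) ran from -0.0049 with all UMIs as the total to 0.38 after subtracting the neutrophil profile. It was 0.22 with Mzb1 at least 1, 0.058 at a mitochondrial limit of 10%, 0.046 at 2000 UMIs, 0.030 with Xbp1 and Derl3, 0.21 with neutrophil genes at most 5%, 0.049 and 0.017 under the Epcam settings, 0.040 centred on the median gene, 0.22 as a mean over members, 0.17 thinned to 500 UMIs and 0.16 without cycling members.

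Reversed values were as follows. The chaperone sum (-0.11) was 0.0065 with Mzb1 at least 1, 9.0e-05 with neutrophil genes at most 5%, 0.12 as a mean over members, 0.17 after the neutrophil subtraction, 0.13 thinned and 0.0020 without cycling members. The glycosylation sum (0.04) was -0.00079 with Xbp1 and Derl3, -0.045 and -0.068 under the Epcam settings, -0.076 with all UMIs as the total, -0.032 centred, -0.097 thinned and -0.16 in Igha cells. Golgi traffic (0.16) was -0.083 with Xbp1 and Derl3. Hspa5 was 0.24 as a mean over members, 0.075 after the subtraction and 0.17 thinned; Cd74 was 0.00099 after it and 0.098 in Igha cells, where Tff2 was 0.081. The subtraction put the NF-kB sum at -2.39, Junb at -0.42, Nfkbia at -0.73 and Cxcl2 at -4.25. The Cxcl2 value is a bound, its takinib count being 0 after the subtraction and set to 3. The cause of these changes was not tested.

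Genes over 2-fold higher and lower in takinib (353 and 170) numbered 785 and 554, and 726 and 402, under the Epcam settings, 684 and 517 at 10 counts, 115 and 58 at 50 counts, 773 and 4730 with no minimum above 1 count, 50 and 22 thinned, and 209 and 106 without cycling members. They were 174 higher in Igha cells and 320 lower after the subtraction. With 26 vehicle cells and 77040 UMIs outside immunoglobulin genes, vehicle depth limits every ratio of a low gene.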

Other observations

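Plasma cells held few transcripts of the drug's target complex. Map3k7, which encodes TAK1, had 1 UMI in the 26 vehicle cells and 11 UMIs in 10 of the 78 takinib cells, a log2 ratio of 1.48 [-1.30, 6.91] on very few counts. Tab2, an adaptor of the complex, had 9 and 25 UMIs, -0.50 [-1.65, 0.78].

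Stress and survival genes gave a mixed picture. Mcl1, on which plasma cells depend for survival, had 34 UMIs in 21 of 26 vehicle cells and 222 in 57 of 78 takinib cells, 441 and 731 CPM, a log2 ratio of 0.73 [0.20, 1.29]. The unfolded protein response sensors Ern1 and Atf6 had -0.62 [-1.79, 0.67] and 0.37 [-0.54, 1.40]. Ddit3, which encodes the stress factor CHOP, had 3 and 6 UMIs, and Trib3, its target, had none in either library. Cd274, which encodes PD-L1, was found in 3 of 26 and 17 of 78 cells, with 3 and 30 UMIs, 1.34 [-0.34, 3.70]. Il10 had 0 and 6 UMIs, and Csf2 none.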
